A study of Rattus norvegicus with 6 samples.

Results

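The genes described here encode the channels and sensors that carry calcium across the plasma membrane when receptors are stimulated or intracellular stores are emptied: the TRPC channel genes Trpc1, Trpc4, Trpc5, Trpc6 and Trpc7, the store sensors Stim1 and Stim2, and the pore genes Orai1 and Orai3. They were chosen by name, and every probe whose accession mapped to these symbols in the rat RefSeq gene table was taken, which gave 13 probes for 9 of the 16581 genes named on the array. Trpc1 and Trpc4 each had 3 probes and the other genes 1 each. A gene with several probes was represented by its brightest probe, judged on the mean over the 6 arrays, so levels are given as a description and were not tested.

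Expression was measured in cardiomyocytes of the neonatal rat ventricle (NRVCs), cultured as primary cells from Sprague-Dawley pups 1 to 2 days old, with the hearts of 8 to 10 rats in a preparation. The 3 Control cultures received medium without C3a. The 3 C3a cultures received recombinant C3a, the complement fragment that activates the receptor C3aR, at 0.5 µg/ml for 12 h. Cultures were kept in a serum-free medium per the sample records and starved in low serum before stimulation per the methods; no genetic change was introduced in either group. The records do not say whether cultures of a group came from separate preparations, so p-values measure the spread between these samples, which may be technical.

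Store-operated calcium entry begins when a receptor coupled to phospholipase C produces inositol trisphosphate, which releases calcium from the endoplasmic or sarcoplasmic reticulum. STIM proteins sense the fall of calcium in the store, gather beneath the plasma membrane and open Orai channels. TRPC channels pass both sodium and calcium, are opened by diacylglycerol (Trpc6 and Trpc7) or downstream of phospholipase C, and feed the calcineurin-NFAT pathway that has been linked to cardiac hypertrophy.

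Each RNA sample was hybridised to a 1-colour array, and the log2 signal of a probe is given after subtraction of its array's 75th percentile, so that 0 marks a probe as bright as that percentile. A probe was called detected where the scanner software put it well above background. Control replicate 1 stood apart, with 38.6% of probes detected against 53.7% to 57.3% on the other arrays and a local background whose median was 47 intensity units and elsewhere 23 or 24, and the results are therefore also given without it. Control and C3a arrays occupied opposite sides of the slide, and position on the slide cannot be told apart from treatment. Of the cell type markers examined, 8 of 8 cardiomyocyte, 6 of 7 fibroblast, 5 of 6 smooth muscle and 5 of 5 endothelial genes were detected on all 6 arrays. The counts were 1 of 6 for leukocyte genes (Cd68) and 1 of 6 for neuron and Schwann genes, compared with 51.6% of all genes. In bulk RNA of this kind, fewer cells of a type and less RNA per cell cannot be told apart.

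Both store sensors, both Orai genes and the TRPC genes Trpc1 and Trpc6 were detected on all 6 arrays in NRVCs, whereas Trpc4, Trpc5 and Trpc7 were at or near background. For 6 of the 9 genes the representing probe was detected on every array, compared with 51.6% of all genes measured on these arrays. Trpc5 and Trpc7 were detected on none of the 6 arrays, as were 29.9% of all genes. Of the single probes, 7 of 13 were detected on all arrays and 4 of 13 on none, compared with 38.4% and 39.6% of all probes. The 4 were those of Trpc5 and Trpc7 and the dimmer probes of Trpc4.

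Trpc4, which with Trpc5 forms the TRPC subfamily closest to Trpc1, was detected by its brightest probe on 1 array, C3a replicate 1. The signal there was -4.10, or 13.4 intensity units with an error of 2.97 estimated by the scanner software. On the other arrays that probe gave -4.36, -6.67 and -5.24 in Control and -5.19 and -5.14 with C3a, none of them well above background. The Trpc5 signal lay between -6.85 and -6.21 on 5 arrays and at -4.34 on Control replicate 1, and the Trpc7 signal between -6.85 and -6.21 and at -4.34, likewise. These values follow the floor of each array: the lowest signal of any detected probe was -2.33 on Control replicate 1 and between -5.34 and -4.69 elsewhere. No fold change is given for the 3 genes, because none was detected on all 3 arrays of either group.

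**Figure D1:**
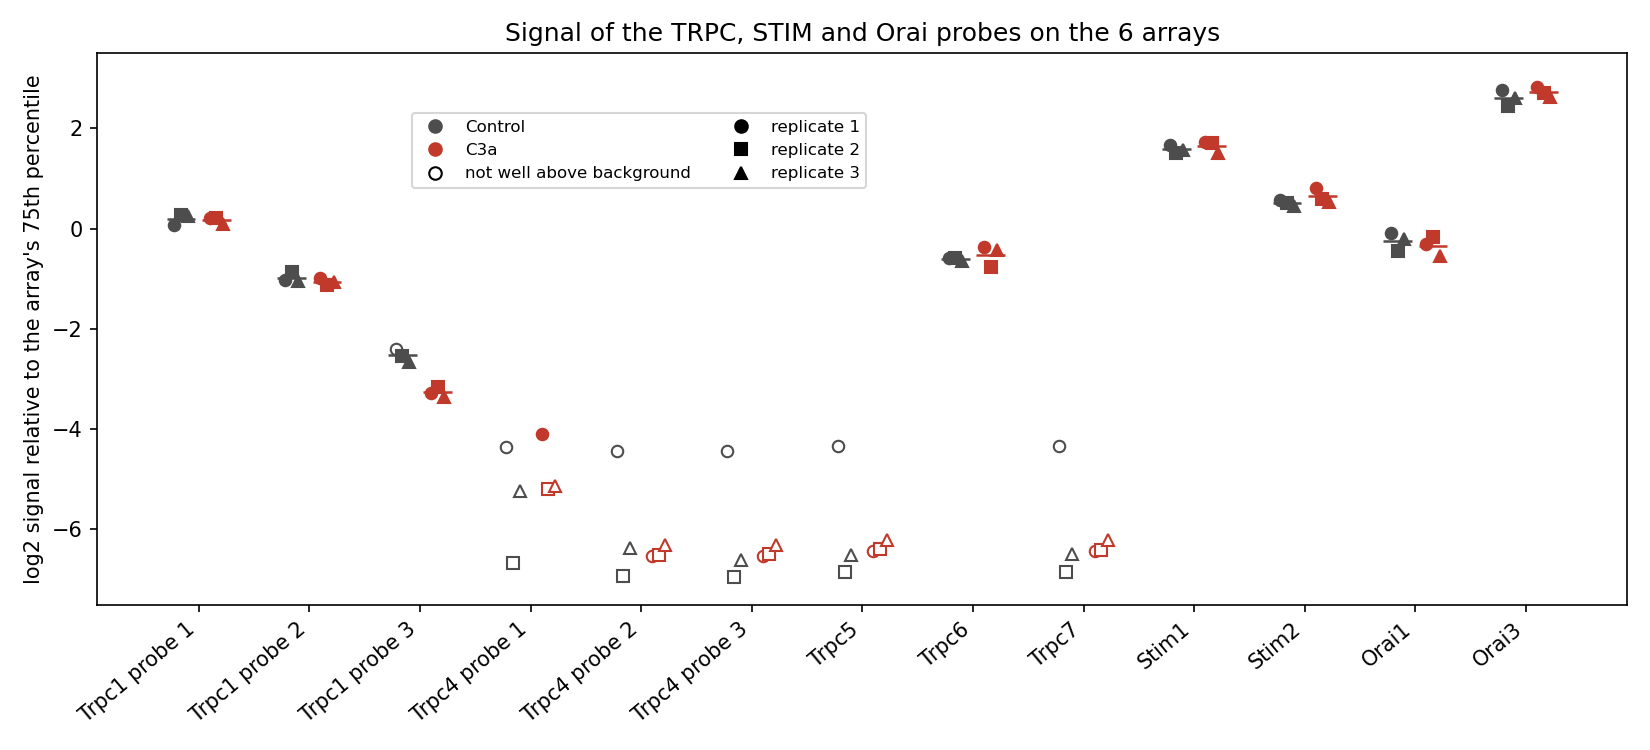
Signal of the 13 probes on each array, as log2 relative to the array's 75th percentile (vertical axis); filled symbols are well above background, open symbols are not, and short lines are group means of the 8 tested probes. Trpc5, Trpc7 and most Trpc4 values are open, and Trpc1 probe 3 is the probe whose C3a values, -3.36 to -3.17, all lie below the Control values, -2.66 to -2.40.

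Trpc6 and Trpc7 belong to the same diacylglycerol-sensitive subfamily, and the first was detected on all arrays and the second on none. Their promoter sequences are shown for that contrast, as the 250 bases before the gene start in RefSeq (GRCr8 build), which is not the build of the array design. Capitals mark the letters GGAAA, the core recognised by NFAT, on either strand, overlaps included.
Trpc6, chr8:14043966-14044215, plus strand: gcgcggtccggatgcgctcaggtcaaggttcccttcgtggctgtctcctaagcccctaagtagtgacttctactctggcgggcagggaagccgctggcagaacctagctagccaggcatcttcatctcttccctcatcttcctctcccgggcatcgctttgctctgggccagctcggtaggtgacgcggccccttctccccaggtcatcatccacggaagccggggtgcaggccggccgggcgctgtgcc
Trpc7, chr17:7714651-7714900, plus strand: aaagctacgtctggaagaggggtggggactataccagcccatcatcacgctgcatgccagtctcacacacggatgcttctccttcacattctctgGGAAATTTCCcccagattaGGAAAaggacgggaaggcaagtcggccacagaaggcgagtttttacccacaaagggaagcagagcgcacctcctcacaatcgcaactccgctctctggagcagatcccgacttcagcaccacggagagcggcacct
The Trpc6 window held 0 matches and the Trpc7 window 3. For Trpc7 the start used lies inside the outer limits of the gene in the same annotation, so other starts exist.

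Among the 8 members in the promoter table, which has no entry for Trpc1, GGAAA was present in the windows of the 3 genes at background, with 1 match for Trpc4, 1 for Trpc5 and 3 for Trpc7, and in none of the windows of Trpc6, Stim1, Stim2, Orai1 and Orai3. Over all 33469 promoters of this length, 56.9% held at least 1 match. The windows also differed in base composition. The GC content was 64.4% for Trpc6, 72.0% for Stim1, 72.4% for Stim2 and 69.6% for Orai1, with 17, 24, 34 and 33 CpG dinucleotides, compared with a median of 51.2% and 5 over all promoters. Orai3 had a GC content of 55.6% and 4 CpG. Trpc4 had 38.0% and 2, Trpc5 55.2% and 10, and Trpc7 55.6% and 12. The TATA box letters TATAAA, present on either strand in 12.9% of all windows, were in none of the 8. These are matches of letters in a short window and say nothing of binding.

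The main comparison asks whether the cells' calcium entry genes differed after exposure to C3a. With C3a the store sensors, the Orai genes, Trpc6 and the brighter Trpc1 probes changed by less than the spread between arrays allows to resolve, and none of the 6 detected genes passed the test. In limma, the adjusted p was under 0.05 for 0 of the 6 genes with C3a higher and 0 with C3a lower, where 0.0% of all genes with a tested probe were called in either direction. At an unadjusted p under 0.05 the counts were also 0 and 0, by limma and by the methods' test, against 2.92% of genes higher and 2.46% lower in limma. Averaging the kept probes of each gene instead gave -0.28 for Trpc1 (unadjusted p = 0.0167 and adjusted p = 0.757 from limma), a mean that includes its dimmest probe. For none of the 6 did the Control and C3a arrays fail to overlap, against 8.09% of genes with C3a above and 4.89% with C3a below. The median change of the 6 genes was 0.075 on the log2 scale, with 4 above 0. The median was 0.036 with 60.5% above 0 over the genes with a tested probe, and 0.048 with 62.2% above 0 over the 23438 tested probes. Of these probes, 23425 were detected on all C3a arrays and 17519 on all Control arrays, so the filter worked mainly through C3a. Without the filter the median over all probes was -0.10.

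Stim1 encodes the principal store sensor. Its signal was 1.66, 1.5 and 1.57 in Control and 1.73, 1.70 and 1.51 with C3a. The groups overlapped, C3a replicate 3 lying between the lower Control values. The change was 0.072 (95% interval -0.17 to 0.32, adjusted p = 0.842 from limma).

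Stim2, a sensor that responds to smaller losses of store calcium, gave 0.57, 0.51 and 0.45 in Control and 0.81, 0.58 and 0.54 with C3a. Replicate 1 was the highest of each group, and the C3a values of replicates 2 and 3 lay within or near the Control range. The change, 0.13 (95% interval -0.13 to 0.38, adjusted p = 0.758 from limma), had the smallest p among the representing probes. C3a exceeded Control in 3 of 3 pairs of equal replicate number, by 0.23, 0.068 and 0.087.

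Orai1 forms the pore that STIM proteins gate. Its signal was -0.09, -0.45 and -0.21 in Control and -0.30, -0.17 and -0.56 with C3a, and the ranges overlapped. The change was -0.089 (95% interval -0.43 to 0.25, adjusted p = 0.854 from limma), with C3a above Control in 1 of the pairs and below it in the others. Orai3, a related pore subunit found in mammals, gave 2.76, 2.45 and 2.61 in Control and 2.82, 2.70 and 2.62 with C3a. The ranges overlapped, and the change was 0.11 (95% interval -0.17 to 0.38, adjusted p = 0.792 from limma).

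Trpc6, a channel gene that NFAT is known to activate in the stressed heart, gave -0.58, -0.58 and -0.64 in Control and -0.36, -0.77 and -0.43 with C3a. Control arrays lay close together (SD 0.037, n = 3) and C3a arrays were spread around them on both sides (SD 0.22, n = 3). The change was 0.078 (95% interval -0.22 to 0.38, adjusted p = 0.857 from limma).

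No direction is given for these genes, since each interval spans 0. When arrays were left unscaled or scaled to the spike-in probes, the median of all tested probes moved from 0.048 to -0.28 and -0.40, and the values of Trpc6, Stim1, Stim2 and Orai3 moved below 0 with it. The 95% intervals of the 5 genes, each for its probe alone and before adjustment, reached from -0.43 to 0.38 on the log2 scale. For each gene, changes within its interval remain compatible with these values.

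**Figure D2:**
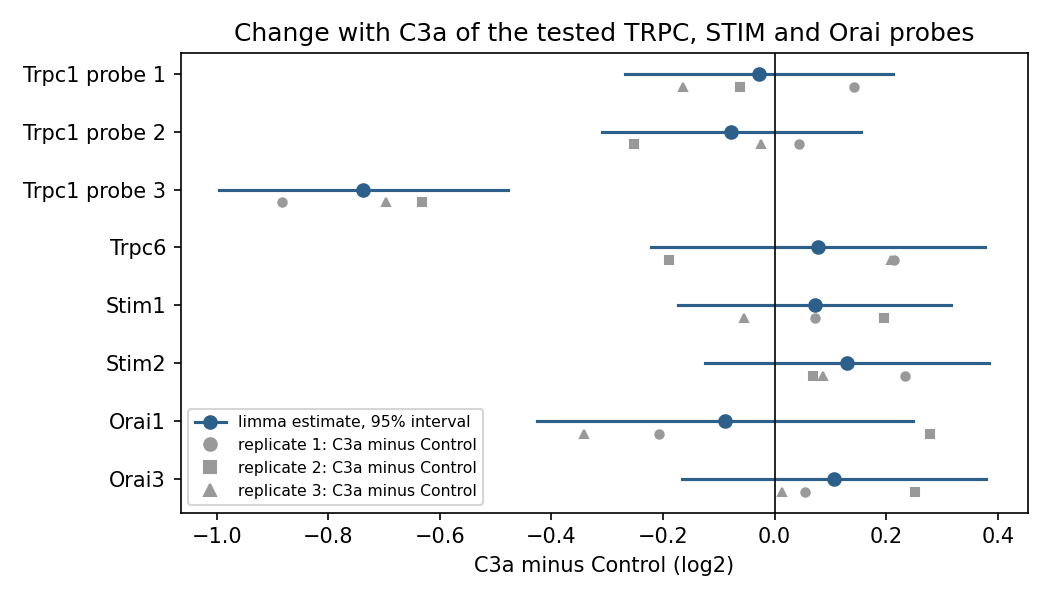
Change with C3a (C3a minus Control, log2, horizontal axis) of the 8 tested probes: points and bars are the limma estimate with its 95% interval, and grey symbols the difference within each replicate number. The interval of Trpc1 probe 3, -1.0 to -0.48, lies below 0 before adjustment over all probes, while the other 7 span 0.

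Trpc1 encodes a channel subunit that assembles with other TRPC proteins and has been placed both at the plasma membrane and in stores. Its 3 probes carry the same transcript accession and are given in order of brightness. Probe 1, the brightest and the representing one, gave 0.06, 0.27 and 0.26 in Control and 0.21, 0.21 and 0.09 with C3a. Those groups overlapped, and the change was -0.028 (95% interval -0.27 to 0.21, adjusted p = 0.942 from limma).

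Trpc1 probe 2 gave -1.03, -0.87 and -1.04 in Control and -0.99, -1.12 and -1.07 with C3a. Control replicate 2 stood above the other arrays, which lay within a narrow band. The change was -0.078 (95% interval -0.31 to 0.15, adjusted p = 0.818 from limma).

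Trpc1 probe 3, the dimmest, gave -2.40, -2.54 and -2.66 in Control and -3.28, -3.17 and -3.36 with C3a. All C3a values lay below all Control values, as they did for 4.49% of the tested probes. In intensity units the signals were 51.8, 63.3 and 42.6 in Control and 23.7, 32 and 20.2 with C3a, with errors by the scanner software of 14.4, 7.09 and 5.18, and of 3.53, 4.69 and 3.42. Control replicate 1 did not measure the probe well above background, so 2 of 3 Control arrays and 3 of 3 C3a arrays did.

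The change of Trpc1 probe 3 was -0.74 on the log2 scale (standard error 0.11, 95% interval -1.0 to -0.48), a signal 1.67-fold lower with C3a, and C3a lay below Control in 3 of 3 pairs, by -0.88, -0.63 and -0.70. It ranked 8 of 23438 tested probes by unadjusted p (0.000255 in limma, where 2.5% of probes were lower at an unadjusted p under 0.05), and the adjusted p from limma was 0.745. A variance trend with signal level in limma gave a standard error of 0.21 and an unadjusted p of 0.00407. Leaving out the detection filter gave an unadjusted p of 0.00212 in limma. The probe is singled out here with its values known. A two-sided exact permutation test of 3 against 3 gave p = 0.1, the smallest it can give. Without Control replicate 1 the change was -0.67 (adjusted p = 0.676 from limma). The adjusted p passed the threshold in none of the alternatives run.

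Comparing probes within an array removes the scaling between arrays. From Control to C3a, the log2 signal of probe 3 minus that of probe 1 moved from -2.73 ± 0.24 to -3.44 ± 0.056 (SD, n = 3 each), a shift of -0.71 (exact permutation test, two-sided, p = 0.1, again the smallest possible), and of -0.58 without Control replicate 1. Relative to probe 2 the shift was -0.66 (exact permutation p = 0.1). Probe 2 relative to probe 1 shifted by -0.050 (exact permutation p = 0.5), with overlapping groups. With normexp background correction the changes of probe 3 and probe 1 were -0.21 (unadjusted p = 0.204 from limma) and 0.011. That setting adds an offset of 50 intensity units, which makes log2 differences of dim probes smaller. The probe 3 signals were 20.2 to 63.3 units, and the share of the offset in the smaller change was not tested. The shifts between probes restate the change of a probe singled out with its values known, and are a description. Which part of the transcript each probe covers was not analysed here. The local background of Control replicate 1 moved with this result in that the highest probe 3 signal on the log2 scale was on that array; its part beyond leaving out that array was not tested.

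**Figure D3:**
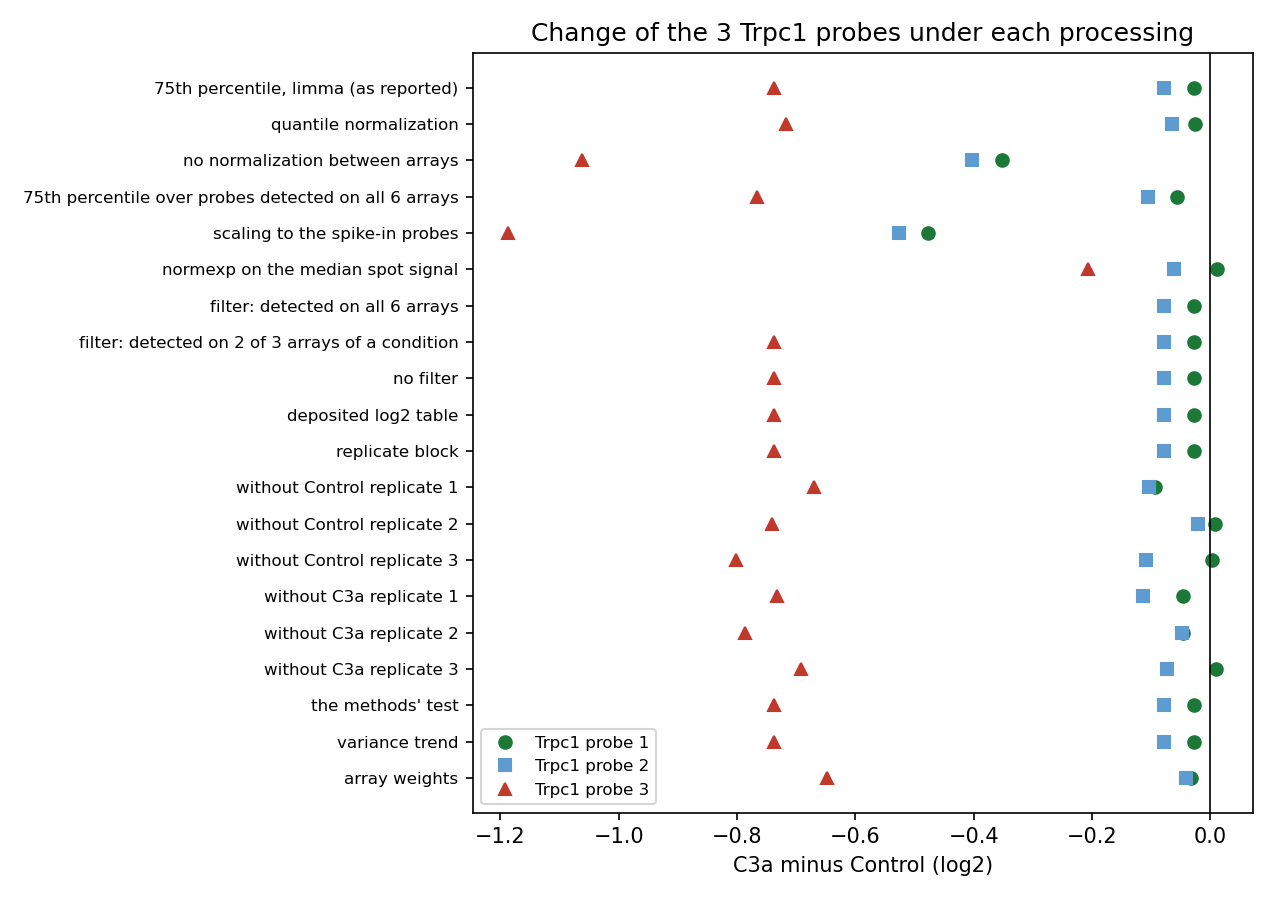
Change with C3a (C3a minus Control, log2, horizontal axis) of the 3 Trpc1 probes under each processing listed on the vertical axis; probe 3 has no value where detection on all 6 arrays was required. Probe 3 lies between -1.19 and -0.21 and below probes 1 and 2 in every setting shown, while probe 1 lies between -0.48 and 0.011.

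Over the 6 arrays, the genes whose signal followed that of Trpc1 probe 1 most closely were Eif4e, Ctr9, Fermt2, Plcl2 and Mppe1, with Pearson's r between 0.93 and 0.98. They are the top of 8555 genes detected on all arrays, and the points share arrays, scaling and labelling.

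The wider calcium entry pathway was read from 6 lists written from general knowledge. Of 66 partner genes, 62 had a named probe and 52 a tested one, and limma called 0 at an adjusted p under 0.05, against 0.0% of all genes. At an unadjusted p under 0.05, 1 was higher (Nfatc2) and 1 lower (Calr), which is 1 of 52 in each direction against 2.92% and 2.46% of all genes. With replicate number as a block in limma, 2 were higher at an unadjusted p under 0.05 (Nfatc2 and Trpm7) and 3 lower (Calr, Jph2 and Rcan2), against 5.78% and 6.06% of all genes, and 0 passed after adjustment. Their median change was 0.034, with 35 of 52 above 0, compared with 0.036 over the genes with a tested probe.

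Orai2, the remaining Orai gene, gave -1.49, -2.28 and -1.68 in Control and -1.92, -1.93 and -2.47 with C3a, which overlapped. Its change was -0.29 (95% interval -0.86 to 0.28, adjusted p = 0.757 from limma), and a further Orai2 probe was not detected on any array.

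Of the 18 regulators and partners of STIM, Orai and TRPC, 16 were tested and 0 were called in either direction, with changes from -0.51 to 0.21. The smallest p belonged to Jph2, which holds the plasma membrane and the sarcoplasmic reticulum together, at 0.76, 1.22 and 0.63 in Control and 0.40, 0.71 and -0.026 with C3a. The groups overlapped through C3a replicate 2, and the change was -0.51 (95% interval -1.04 to 0.026, adjusted p = 0.745 from limma). Without Control replicate 1 it was -0.56 (adjusted p = 0.676 from limma). C3a lay below Control in 3 of 3 pairs of equal replicate number, by -0.35, -0.51 and -0.65, and with the block the unadjusted p from limma was 0.00314 and the adjusted p 0.220. Cav3, the muscle caveolin, changed by 0.21 and the scaffold gene Homer2 by 0.16, both with adjusted p = 0.745 from limma. Saraf, the inhibitor of store-operated entry, and Stimate, a STIM activator, were detected on all 6 arrays.

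Of the 11 genes of the store and its release, 7 were tested and 0 called. Calr encodes calreticulin, the calcium-binding chaperone of the store. Its signal was 2.42, 2.67 and 2.22 in Control and 1.97, 2.20 and 1.84 with C3a. All C3a values lay below all Control values, as for 4.89% of all genes with a tested probe, the closest being 2.20 and 2.22. The change was -0.43 (95% interval -0.79 to -0.073, adjusted p = 0.745 from limma), and -0.44 without Control replicate 1 (adjusted p = 0.676 from limma). The sarcoplasmic reticulum genes Ryr2, Atp2a2 and Pln and the inositol trisphosphate receptor gene Itpr1 were detected on all arrays, while the probes of Itpr2, Itpr3, Atp2a3 and Atp2b4 were detected on none.

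Upstream, 10 of 14 genes from receptor to phospholipase C were tested and 0 called. The receptor gene C3ar1, of whose 2 probes 1 was tested, changed by 0.092 (adjusted p = 0.853 from limma). Gnaq, the G protein subunit that activates phospholipase C beta, was dim and was detected on 2 of 3 Control and 3 of 3 C3a arrays. It was therefore tested only through its detection with C3a, the group where it was higher. Gnaq gave -4.10, -3.55 and -3.55 in Control and -3.14, -3.45 and -3.38 with C3a, without overlap, as in 8.09% of all genes with a tested probe with C3a higher. Its change was 0.41 (95% interval -0.0047 to 0.82, adjusted p = 0.745 from limma). Its lowest value was that of Control replicate 1, where the probe was not well above background, and without that array the change was 0.23 (adjusted p = 0.676 from limma).

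Downstream, all 13 calcineurin-NFAT genes were tested and 0 called. Nfatc2, an NFAT transcription factor, had 2 probes, of which 1 passed the detection filter and was tested. That probe gave 2.29, 2.24 and 2.37 in Control and 2.53, 2.47 and 2.59 with C3a. The groups did not overlap, as in 8.09% of all genes with a tested probe with C3a higher. The change was 0.23 (95% interval 0.017 to 0.45, unadjusted p = 0.0383 and adjusted p = 0.745 from limma). Without Control replicate 1 it was also 0.23, with an unadjusted p of 0.0994 and an adjusted p of 0.676 from limma. Rcan2, which binds and restrains calcineurin, changed by -0.53 (adjusted p = 0.745 from limma) with overlapping groups, and by -0.62 without Control replicate 1 (adjusted p = 0.676 from limma). Among the 7 other TRP family channels, 5 were tested and 0 called, with changes from -0.23 for Trpm4 to 0.22 for Trpm7. Trpm3 and Trpv1 were detected on none of the 6 arrays.

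**Figure D4:**
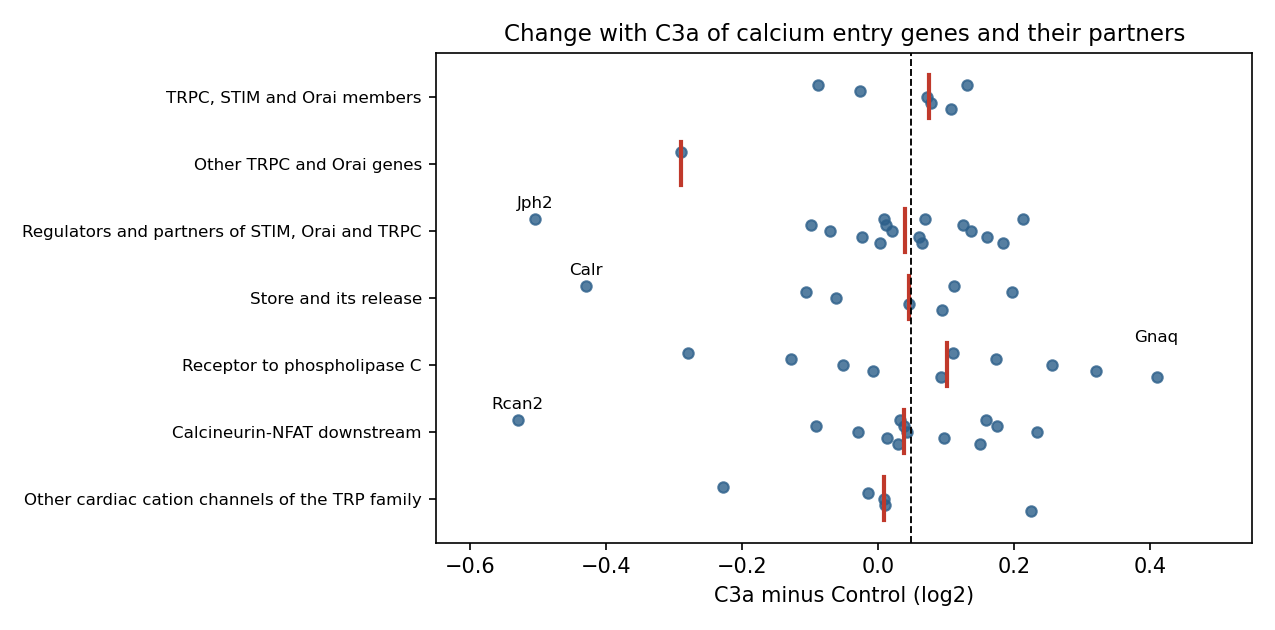
Change with C3a (C3a minus Control, log2, horizontal axis) of every tested gene in each list (vertical axis); red bars are list medians and the dashed line is the median of all tested probes, 0.048. Jph2, Calr and Rcan2 lie farthest below 0 and Gnaq, at 0.41 with Control replicate 1 and 0.23 without it, farthest above, and none passed the adjusted threshold. Gnaq was tested only through its detection with C3a.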

How the data were processed

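Gene expression was measured in 6 NRVC cultures, 3 Control and 3 C3a, grouped by sample title. The authors deposited intensity values per spot from Agilent Feature Extraction 11.5.1.1, per the labels, which subtracts background and corrects trends within the array. The authors also deposited a log2 table of 36638 probes, made with GeneSpring per the methods. It equals the log2 intensity minus the array's 75th percentile, uncentred, to within 0.0058 at the median, and its column medians were -3.13 to -3.00.

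Control spots and outlier flags were left out, and spots of a probe were averaged as log2. The 75th percentile, 207 to 367 intensity units, was subtracted. A probe counted as detected where at least 50% of its spots were well above background. Kept were 23438 of 45572 probes detected on all 3 arrays of a condition, and these are the tested probes. Accessions named 21109 of 45598 probes (46.3%) by the GRCr8 gene table. No spot was saturated. All arrays lay on 1 slide, with no block for slide possible. The number of arrays limits the precision. Results for 2 listed genes are not reported here.

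Differences were tested two-sided with limma 3.58.1 (R 4.3.3) and Benjamini-Hochberg adjustment over all kept probes. The fit was tested on simulated data. The methods' test is the analysis of variance at an unadjusted p of 0.05, run on the same values. Figures used matplotlib 3.10.9. The members, lists and alternatives were chosen with earlier results of these data known. From each list the genes called were named, otherwise at most 3 with the smallest unadjusted p, and any further gene was named after its values were seen. Alternatives covered scaling, background, filter, test, replicate block, array left out and choice of probe; normexp (offset 50) used the median spot signal.

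Deviations from the group mean correlated at 0.28, 0.32 and 0.31 between arrays of equal replicate number and between -0.26 and -0.093 otherwise. The numbers were therefore treated as pairs in the alternative with a replicate block. The pairing comes from these values, since the sample titles give only the number. Deviations within a group cancel out for each probe, so positive correlations at equal numbers bring negative ones elsewhere. The negative range is not separate support for the pairing.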

Additional observations from a re-analysis of the deposited data

How the results depend on the processing

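Across the alternatives, 0 of the 6 detected member genes were called in any setting, and adjusted p from limma stayed at 0.193 or above for all 8 tested probes. Without normalization between arrays the change was -0.25 for Trpc6, -0.25 for Stim1, -0.20 for Stim2 and -0.22 for Orai3, and with spike-in scaling -0.37, -0.38, -0.32 and -0.34, each reversed in sign. The median of all tested probes moved as far in these settings. Normexp turned Trpc1 probe 1 to 0.011. Leaving out each array in turn gave -0.094 to 0.010 for Trpc1 probe 1, where the sign turned without Control replicate 2, Control replicate 3 or C3a replicate 3. The range was -0.0011 to 0.20 for Trpc6, turning without C3a replicate 1, and -0.19 to 0.018 for Orai1, turning without C3a replicate 3. It was 0.030 to 0.14 for Stim1, 0.047 to 0.18 for Stim2, 0.029 to 0.18 for Orai3, -0.11 to -0.021 for Trpc1 probe 2 and -0.80 to -0.67 for Trpc1 probe 3.

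Trpc1 probe 3 kept its direction in all 18 alternatives that gave a value. These ran from -1.19 with spike-in scaling and -1.06 without normalization to -0.21 with normexp. The normexp offset of 50 makes log2 differences of dim probes smaller, and its share apart from the background correction was not tested. Trpc1 probe 3 passed 0.05 without adjustment, at -0.74, in limma and in the methods' test, but not with normexp (unadjusted p = 0.204 from limma). The mean over the kept probes gave -0.28 for Trpc1, with an unadjusted p of 0.0167 and an adjusted p of 0.757 from limma. With the replicate block the adjusted p of Trpc1 probe 3 from limma was 0.220, and the block changed no call after adjustment.

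Among partner genes, the methods' test called 1 higher, Nfatc2. Over all tested probes, 4 were called lower without normalization, 1 higher and 15 lower with spike-in scaling, and 749 higher and 363 lower in the methods' test at its unadjusted threshold, which became 0 and 0 after Benjamini-Hochberg adjustment. Signal near background limits Trpc4, Trpc5, Trpc7 and Trpc1 probe 3 most.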
